A study of Mus musculus with 3 samples.

Results

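Mlycd encodes malonyl-CoA decarboxylase, which returns malonyl-CoA to acetyl-CoA, and it is described here with 8 genes that make malonyl-CoA, use it or are held in check by it. The 9 genes (Mlycd, Acaca, Acacb, Acsf3, Fasn, Cpt1a, Cpt1b, Cpt1c and Cpt2) were chosen by name, out of 29917 genes with a row in the data, because Mlycd was known to stand far higher in the Cx30-deleted library. The ratios below are therefore descriptions and carry no test. Poly(A)+ RNA of isolated mouse brain vessels had been sequenced in 3 libraries: C57BL6 WT, C57BL6/Balbc WT (C57BL6-BALB/c in the labels, mixed WT below) and Cx30Δ/Δ (Cx30-/-), in which Gjb6, the gene of the astrocytic gap junction protein connexin 30, is deleted. All mice were 3 months old and, per the study's methods, male, with 3 animals pooled into each library. The labels place the Cx30Δ/Δ mice on C57BL6, whereas the study's methods place them on C57BL6/Balbc. The deletion was constitutive and was not limited to astrocytes or vessels.

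Malonyl-CoA is the carbon donor of fatty acid synthesis and, at the same time, the inhibitor of carnitine palmitoyltransferase 1, the outer mitochondrial membrane enzyme that admits long-chain fatty acids to oxidation. Acetyl-CoA carboxylases make it in the cytosol, fatty acid synthase consumes it, and malonyl-CoA decarboxylase removes it in mitochondria, peroxisomes and cytosol. High malonyl-CoA thus favours synthesis, and low malonyl-CoA favours fatty acid oxidation.

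The promoter window of Mlycd is shown because Mlycd is the 1 of the 9 genes that passed 2-fold against both WT libraries. It runs over chr8:119394644-119394943 of GRCm38.p6 on the plus strand, as given by RefSeq, and holds 300 bases from upstream of the gene start to just inside the transcript. The capitals mark CCAAT or, for the same motif on the opposite strand, ATTGG.
Mlycd: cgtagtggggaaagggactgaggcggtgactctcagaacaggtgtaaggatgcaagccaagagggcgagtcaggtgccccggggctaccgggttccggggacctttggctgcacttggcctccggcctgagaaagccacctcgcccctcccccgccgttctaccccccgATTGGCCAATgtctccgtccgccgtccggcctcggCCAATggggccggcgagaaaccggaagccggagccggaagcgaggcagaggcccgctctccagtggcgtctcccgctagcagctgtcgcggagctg

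The window was rich in G and C, at 68%, against a median of 52.7% over 32851 windows of the same length around RefSeq gene starts, and 87.4% of those windows were lower. It held 27 CpG dinucleotides against a median of 7. CCAAT, searched on both strands, matched at 3 places that did not overlap, and 37.4% of all windows held at least 1 match. Searched in the same way, GGGCGG (35.7% of windows), CACGTG (7.15%), AGGTCA (16.3%) and TATAAA (13.6%) did not occur in these letters.

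The libraries held 60725557 counts over all transcript rows in C57BL6 WT, 53484865 in mixed WT and 50375426 in Cx30Δ/Δ, and counts were divided by size factors of 1.145, 0.926 and 0.953 before libraries were compared. Each of the 9 genes had between 101 and 4506 counts in every library. Gjb6, the deleted gene, read 2531.4, 2426.0 and 100.7 normalized counts in the same order. The 10 endothelial markers, led by Cldn5 and Pecam1, were abundant in all 3 libraries, and each was highest in Cx30Δ/Δ (sums of 153631.2, 96740.5 and 188196.7 normalized counts). Of the 8 neuronal markers, 7 were lowest in Cx30Δ/Δ (sums of 40195.3, 48542.0 and 28142.9), and the choroid plexus markers had their highest sum in C57BL6 WT (146787.1, 56959.4 and 77058.1). In whole vessels, fewer cells of a type and less RNA per cell cannot be told apart.

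Mlycd had 883 counts in C57BL6 WT, 720 in mixed WT and 3889 in Cx30Δ/Δ. Normalized, these were 771.0, 777.7 and 4079.8, so the WT libraries lay close together and the Cx30Δ/Δ library far above both. The level was 5.29-fold that of C57BL6 WT (log2 ratio 2.40, 95% interval 2.30 to 2.51) and 5.25-fold that of mixed WT (2.39, 2.28 to 2.51). Between the WT libraries, the log2 ratio was 0.01 (-0.13 to 0.16). These intervals are exact binomial ones for the pair of raw counts. They cover counting error alone, since each group is 1 library with no replicate, and both comparisons share the Cx30Δ/Δ library.

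Mlycd (ENSMUSG00000074064) lies on chromosome 8, 119394878 to 119411102 on the plus strand of GRCm38. Divided by the length of its transcript row, its level was 262.9 normalized counts per kb in C57BL6 WT, 265.2 in mixed WT and 1391 in Cx30Δ/Δ. Among the 14688 genes that reached 50 normalized counts in at least 1 library of each Cx30Δ/Δ comparison, that placed it at rank 7161, 7126 and 766, where rank 1 is the highest level per length. It was thus a gene of middling abundance in both WT preparations and one of the more abundant messengers in Cx30Δ/Δ vessels.

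Mlycd was the 1 of the 9 genes to reach 2-fold against both WT libraries. Over all genes, 109 of 14688 (0.742%) were at least 2-fold higher in both comparisons and 99 (0.674%) at least 2-fold lower. Against C57BL6 WT alone, 395 of 14776 genes (2.67%) passed 2-fold in either direction, and of the 9 genes Mlycd did. Against mixed WT, 1294 of 14891 (8.69%) passed, and of the 9 genes Mlycd and Acacb did. Between the WT libraries, 508 of 14791 (3.43%) passed and none of the 9 genes did. By the smaller of its pair of log2 ratios, Mlycd stood at rank 3 of all genes, the property for which the group was chosen. No such share or rank is read as evidence here.

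**Figure D1:**
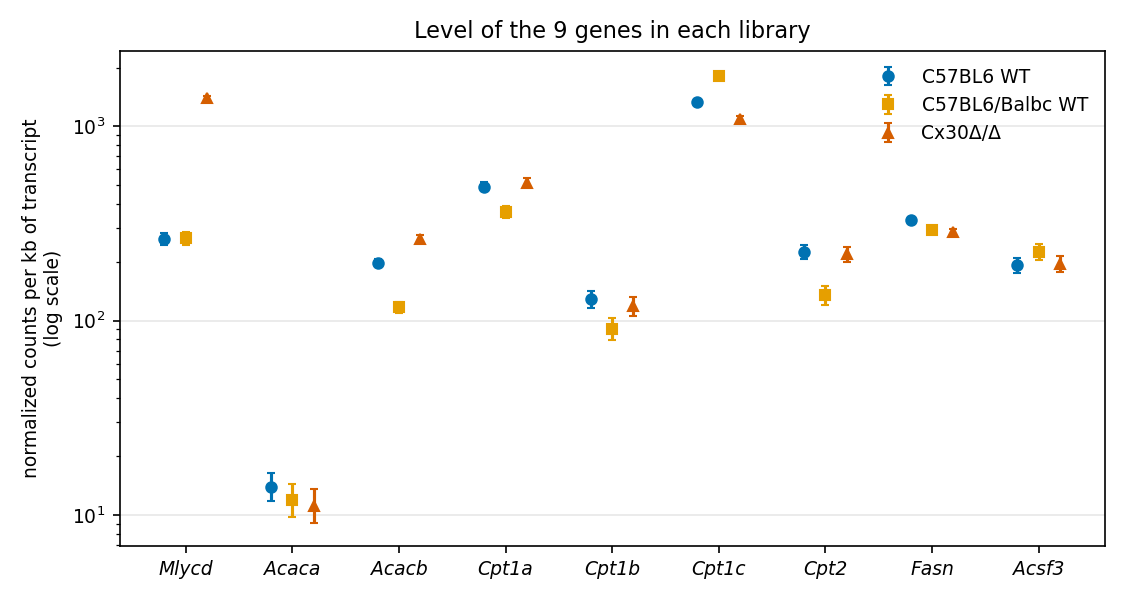
Level of each of the 9 genes in the 3 libraries, in normalized counts per kb of transcript row on a log axis; each point is 1 library and each bar the exact 95% interval of its count. Mlycd moved from 262.9 and 265.2 in the WT libraries to 1391 in Cx30Δ/Δ, and the other genes stayed within a narrower band.

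Mlycd is listed with 2 transcript rows, which share most of their exons. The coding transcript Mlycd-201 (ENSMUST00000098367, 5 exons, 2128 bases) had 843, 675 and 3830 counts in C57BL6 WT, mixed WT and Cx30Δ/Δ. Mlycd-202 (ENSMUST00000145121, 4 exons, 2933 bases) is annotated as a retained intron and, having slightly more counts, is the row used above. Its exon from 119401481 to 119402590 keeps the intron that lies between the second and the third exon of the coding transcript (119401481 to 119401593 and 119402434 to 119402590).

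The coding row gave nearly the same ratios as the longer row, with log2 ratios of 2.45 against C57BL6 WT, 2.46 against mixed WT and -0.01 between the WT libraries. Its level per length was 345.9 normalized counts per kb in C57BL6 WT, 342.6 in mixed WT and 1888 in Cx30Δ/Δ. The rows share 2093 bases, 840 bases belong to Mlycd-202 alone and 35 to Mlycd-201 alone, so most counts are in both and cannot be assigned to either. The net difference between the rows was 40, 45 and 59 counts, or 4.53%, 6.25% and 1.52% of the Mlycd-202 count. The excess of Mlycd counts in the Cx30Δ/Δ library therefore lay mostly in the bases common to both rows. The net difference itself had log2 ratios of 0.83 (0.22 to 1.44) against C57BL6 WT and 0.35 (-0.24 to 0.94) against mixed WT.

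**Figure D2:**
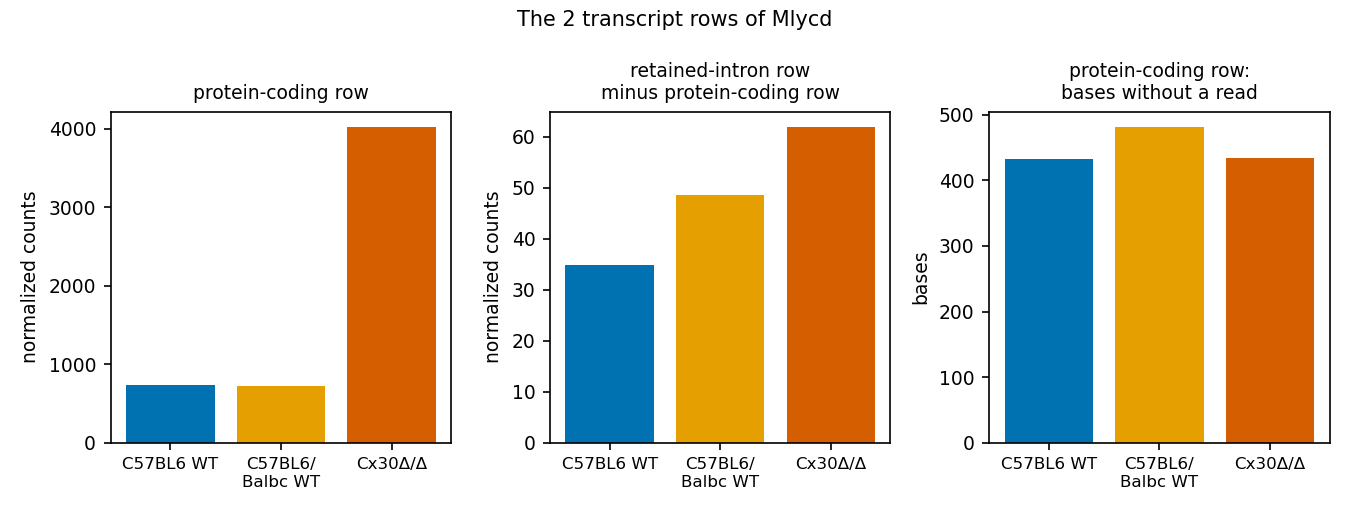
From left to right, normalized counts of the coding row Mlycd-201, net difference of Mlycd-202 minus Mlycd-201 in normalized counts, and bases of the coding row without a read. Each panel has 1 bar for each of the 3 libraries. The coding row is highest in Cx30Δ/Δ (4017.9), whereas the net difference goes from 34.9 and 48.6 to 61.9. Bases without a read are 432, 481 and 434 in C57BL6 WT, mixed WT and Cx30Δ/Δ.

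Reads covered a similar part of Mlycd in every library despite the difference in counts. Of the 2933 bases of Mlycd-202, 82.0% had a read in C57BL6 WT, 83.2% in mixed WT and 85.3% in Cx30Δ/Δ. Genes within 2-fold of its length and count in the same library had median coverages of 94.8%, 94.5% and 97.8%, and 9.38%, 11.6% and 3.38% of them were covered less. The coding row had 432, 481 and 434 bases without a read. The first 400 bases of that row are 76.5% G and C and the rest 57.4%, but where the bases without reads lie is not given by the files.

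Acacb encodes the acetyl-CoA carboxylase of the outer mitochondrial membrane, whose malonyl-CoA is placed next to carnitine palmitoyltransferase 1. It had 1734.2 normalized counts in C57BL6 WT, 1026.1 in mixed WT and 2320.5 in Cx30Δ/Δ. It was highest in Cx30Δ/Δ, yet the WT libraries lay farther from each other than Cx30Δ/Δ lay from C57BL6 WT. The level was 1.34-fold that of C57BL6 WT (log2 ratio 0.42, 0.33 to 0.51) and 2.26-fold that of mixed WT (1.18, 1.07 to 1.29). The WT libraries differed by a log2 ratio of -0.76 (-0.87 to -0.64, C57BL6/Balbc over C57BL6). All 5 of its transcript rows were higher in Cx30Δ/Δ than in either WT library, so the direction was the same whichever row was taken. Acacb (ENSMUSG00000042010) lies on chromosome 5, 114146535 to 114250761.

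Acaca, the cytosolic carboxylase that supplies fatty acid synthesis, was the lowest of the 9 genes per length in every library. It had 132.7, 113.4 and 106.0 normalized counts in C57BL6 WT, mixed WT and Cx30Δ/Δ, from 152, 105 and 101 counts. The log2 ratios of Cx30Δ/Δ were -0.33 (-0.70 to 0.05) and -0.10 (-0.51 to 0.31). Both intervals include 0, so no difference in Acaca was detectable at this depth. Acaca (ENSMUSG00000020532) lies on chromosome 11, 84129672 to 84401651. Per length, the Acacb row stood above the Acaca row by a ratio of 14.1 in C57BL6 WT, 9.79 in mixed WT and 23.7 in Cx30Δ/Δ. Reads covered no more than 21.7% of the Acaca row, so its level per length is uncertain. These ratios therefore do not settle which carboxylase messenger was the more abundant.

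Acsf3 encodes malonyl-CoA synthetase, which makes malonyl-CoA from malonate inside mitochondria. Its 425.2, 497.9 and 432.2 normalized counts lay close together, with Cx30Δ/Δ between the WT libraries. The log2 ratios were 0.02 (-0.17 to 0.22) against C57BL6 WT and -0.20 (-0.40 to -0.01) against mixed WT. Acsf3 (ENSMUSG00000015016) shares chromosome 8 with Mlycd but starts at 122775486 and ends at 122817880.

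Fasn, the fatty acid synthase that consumes malonyl-CoA, had 3170.6 normalized counts in C57BL6 WT, 2818.1 in mixed WT and 2725.4 in Cx30Δ/Δ. The Cx30Δ/Δ level was the lowest by a small margin. The log2 ratio was -0.22 (-0.29 to -0.15) against C57BL6 WT and -0.05 (-0.13 to 0.03) against mixed WT, where the interval includes 0. The second of these changed sign, to 0.03, when counts were scaled by the total that the files divide by. Fasn (ENSMUSG00000025153) lies on chromosome 11, 120805846 to 120824547.

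Cpt1a, the widely expressed isoform of the malonyl-CoA-sensitive carnitine palmitoyltransferase, had 1288.0, 957.0 and 1354.3 normalized counts in C57BL6 WT, mixed WT and Cx30Δ/Δ. Its Cx30Δ/Δ level was close to that of C57BL6 WT (log2 ratio 0.07, -0.04 to 0.18) and above that of mixed WT (0.50, 0.38 to 0.63). Cpt1a (ENSMUSG00000024900) lies on chromosome 19, 3322334 to 3385733.

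Cpt1b, the muscle isoform, read 363.3, 257.1 and 335.7 normalized counts in that order of libraries. Its log2 ratios were -0.11 (-0.33 to 0.10) and 0.38 (0.14 to 0.63), so that, like Cpt1a, it differed in Cx30Δ/Δ from the lower WT library and not detectably from the other. Cpt1b (ENSMUSG00000078937; chromosome 15, 89416405 to 89425863) overlaps the gene Gm44502 on the same strand over 2744 bases of its row, and reads there cannot be assigned to either gene. The 8 markers of striated muscle, a tissue known for Cpt1b, summed to 722.1, 927.8 and 703.9 normalized counts, of which Actn2 made up 482.9, 613.5 and 429.1 and Ttn 163.3, 223.6 and 169.9. The other 6 did not reach the count minimum (Ckm read 18.3, 28.1 and 11.5), and the part of muscle cells in the Cpt1b level was not tested.

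Cpt1c, the neuronal isoform of the endoplasmic reticulum, had the most counts of the 3 isoforms in every library. It had 3583.6 normalized counts in C57BL6 WT, 4867.1 in mixed WT and 2915.3 in Cx30Δ/Δ. It was the 1 of the 9 genes whose level in Cx30Δ/Δ lay below both WT libraries with both intervals below 0 (log2 ratios -0.30, -0.37 to -0.23, and -0.74, -0.81 to -0.67). The WT libraries differed as well, by 0.44 (0.38 to 0.50). The neuronal markers had the same order of libraries as Cpt1c, with sums of 40195.3, 48542.0 and 28142.9 normalized counts and median log2 ratios of -0.53 and -0.79 in Cx30Δ/Δ, and their part in the Cpt1c ratio was not tested. Cpt1c (ENSMUSG00000007783; chromosome 7, 44959372 to 44974851) overlaps the antisense gene 6530437J22Rik over 366 bases, and the libraries do not keep strand.

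Cpt2, the inner membrane partner that is not sensitive to malonyl-CoA, had 536.1, 319.7 and 521.4 normalized counts. It was near equal in Cx30Δ/Δ and C57BL6 WT (log2 ratio -0.04, -0.21 to 0.13) and lower in mixed WT, against which Cx30Δ/Δ read 0.71 higher on the log2 scale (0.50 to 0.92). Cpt2 (ENSMUSG00000028607) lies on chromosome 4, 107903981 to 107923610. Cpt1a, Cpt1b, Cpt2 and Acacb were all lower in mixed WT than in C57BL6 WT (log2 ratios of -0.43, -0.50, -0.75 and -0.76). Endothelial markers were also lower in mixed WT than in the other libraries, and whether the 2 patterns are linked was not tested.

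The other 8 genes ranged in log2 ratio from -0.33 to 0.42 against C57BL6 WT (median -0.08), from -0.74 to 1.18 against mixed WT (median 0.17) and from -0.76 to 0.44 between the WT libraries (median -0.33). Over all genes the medians were -0.00, 0.01 and -0.01. Of all 9 genes, 2 had intervals above 0 and 2 below 0 against C57BL6 WT. Against mixed WT, 5 were above and 2 below. Mlycd and Acacb were above 0 in both comparisons.

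**Figure D3:**
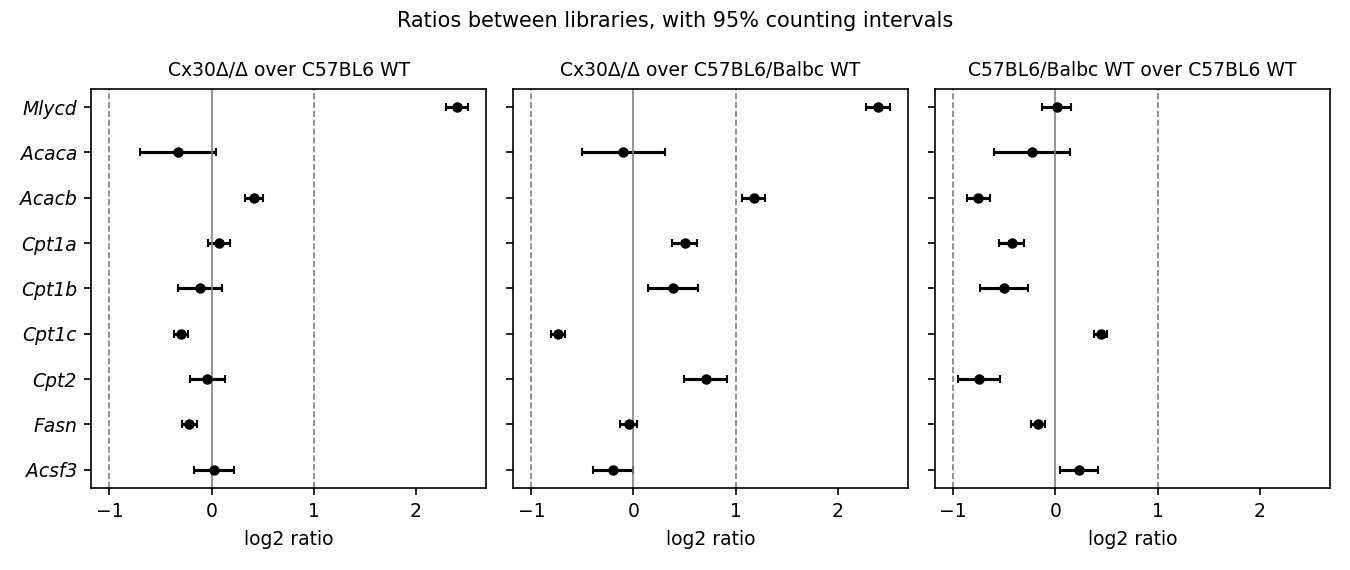
Log2 ratio of each of the 9 genes in the 3 comparisons, with bars for the exact 95% interval of counting error and a line at 0. Mlycd sits at 2.40 and 2.39 in the Cx30Δ/Δ comparisons and at 0.01 between the WT libraries, whereas the other 8 lie between -0.76 and 1.18.

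Ratios within a library, which no scaling between libraries touches, set Mlycd against its partners per length. Mlycd stood at 0.795, 0.902 and 4.89 times Fasn in C57BL6 WT, mixed WT and Cx30Δ/Δ. Against Cpt1a, it stood at 0.539, 0.731 and 2.71 times. Against Acacb, it stood at 1.33, 2.27 and 5.27 times. By the row used, Mlycd was thus below Fasn and Cpt1a and above Acacb in both WT libraries, and above all of them in Cx30Δ/Δ. The order against Fasn depended on the row. At 345.9 and 342.6 normalized counts per kb, the coding row Mlycd-201 stood above Fasn (330.7 and 293.9) in C57BL6 WT and mixed WT. That row stayed below Cpt1a (487.9 and 362.5). Against Cpt1c, the most abundant of the 9 genes per length in the WT libraries, Mlycd went from 0.196 and 0.146 times to 1.28 times, so that it led the 9 genes in Cx30Δ/Δ. Cpt1c stood at 2.74, 5.02 and 2.12 times Cpt1a.

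The wider pathway was described with 13 lists of 119 genes, which include the 9 genes. Of the 110 others, 107 had a row and 100 reached the count minimum. None of the 100 was 2-fold higher or 2-fold lower in both comparisons. Over all genes the shares were 0.742% higher and 0.674% lower, so a count of 0 among 100 lies near them. Of the 100, 34 were higher and 37 lower than both WT libraries, by any amount, while over all genes 37.1% were higher than both and 36.6% lower. Their median log2 ratios were -0.07 against C57BL6 WT and 0.08 against mixed WT. The counts of each list below are descriptions, since both comparisons share the Cx30Δ/Δ library. Of each list, the genes named are chiefly those at either end when genes with 1 sign in both comparisons are put in order by whichever of their ratios is closer to 0; by 1 comparison alone, others of a list can lie farther out.

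Mitochondrial beta-oxidation, the route that low malonyl-CoA opens, had 15 genes, of which 9 were higher and 1 lower than both WT libraries. Over all genes, 37.1% were higher and 36.6% lower. Their median log2 ratio was 0.04 against C57BL6 WT and 0.47 against mixed WT, and -0.41 between the WT libraries. Etfa, a subunit of the flavoprotein that takes electrons from acyl-CoA dehydrogenases, read 253.2, 199.8 and 335.7 normalized counts (log2 ratios 0.41 and 0.75). Hadhb, a subunit of the trifunctional protein, read 56.8, 51.8 and 42.0 (-0.44, -1.04 to 0.15, and -0.31, -0.95 to 0.33). Both intervals include 0. The row used for Hadhb is annotated as a retained intron, with 65, 48 and 40 counts and reads over 45.9%, 37.6% and 29.3% of its bases. It may not stand for the coding transcript. No gene of the list was near the ratio of Mlycd.

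The carnitine shuttle, with 8 genes and 4 of them members described above, had 4 genes higher and 1 lower in both comparisons. Crat, which exchanges short acyl groups between carnitine and CoA, read 2018.8, 2327.7 and 2485.2 normalized counts (0.30 and 0.09). Fatty acid uptake and activation had 0 of 11 genes higher and 8 lower (37.1% and 36.6% over all genes), with medians of -0.28 and -0.08. Fabp5, a fatty acid binding protein at the lower end by that order, read 262.8, 254.9 and 177.3 normalized counts (-0.57 and -0.52). The row used for Fabp5 is annotated as a retained intron.

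Of 15 genes that use malonyl-CoA in synthesis and elongation, 10 were lower and 2 higher than both WT libraries, with medians of -0.22 and -0.21. Over all genes, 36.6% were lower and 37.1% higher. Elovl4, the elongase of very long chains, read 439.2, 455.8 and 289.5 normalized counts (log2 ratios -0.60 and -0.65). Hacd4, a dehydratase of the elongation cycle, stood at the upper end by that order, with small ratios (0.11 and 0.06). Of the lipogenic regulators and desaturases, 2 of 8 were higher and 3 lower. Mlxipl, a carbohydrate-responsive transcription factor, read 206.1, 211.7 and 270.7 (0.39 and 0.35). Scap, the escort of the sterol-sensing factors, stood at the lower end by that order (-0.22 and -0.20).

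Acetyl-CoA supply had 4 genes, of which Acss2, the nuclear and cytosolic acetyl-CoA synthetase, was the 1 gene lower in both comparisons, at 978.9, 982.9 and 699.7 normalized counts (-0.48 and -0.49). Of 9 genes of AMP-activated kinase and carboxylase control, 3 were higher and 4 lower. Camkk2, a kinase upstream of AMP-activated kinase, read 840.0, 1346.9 and 612.6 (-0.46 and -1.14). Mid1ip1, which promotes the assembly of acetyl-CoA carboxylase into filaments, read 1607.6, 1560.8 and 1926.1 (0.26 and 0.30).

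Peroxisomes also hold malonyl-CoA decarboxylase, and 5 of 13 peroxisomal genes were higher and 5 lower. Acaa1b, a peroxisomal thiolase, had 129.2 and 111.3 normalized counts in the WT libraries and 251.8 in Cx30Δ/Δ, the nearest to 2-fold in both comparisons among the 100 genes (log2 ratios 0.96, 0.66 to 1.27, and 1.18, 0.84 to 1.53). Reads covered 17.6%, 24.2% and 24.2% of the Acaa1b row in C57BL6 WT, mixed WT and Cx30Δ/Δ, so these values rest on a small part of it. Decr2, a peroxisomal dienoyl-CoA reductase, stood at the lower end of the ratios, with 840.9, 753.9 and 595.9 normalized counts (-0.50 and -0.34). Pex5, the import receptor for the targeting signal found at the end of many peroxisomal enzymes, was level at 2044.2, 2001.5 and 1932.4. Among the mitochondrial sirtuins, Sirt4, known to deacetylate and inhibit malonyl-CoA decarboxylase, read 1458.2, 1817.9 and 1229.5, lower in Cx30Δ/Δ by log2 ratios of -0.25 (-0.36 to -0.14) and -0.56 (-0.67 to -0.46). Sirt3 did not differ detectably (0.13, -0.01 to 0.28, and 0.03, -0.12 to 0.18). Of the genes for propionyl- and methylmalonyl-CoA, 2 of 5 were higher and 1 lower, and Pcca, a subunit of propionyl-CoA carboxylase, had the highest ratios (0.27 and 0.63). Among 14 regulators and targets of the fatty acid sensors of the PPAR family, 7 were higher and 3 lower, with Ucp2, a mitochondrial carrier, at 2883.3, 2234.8 and 3598.2 normalized counts (0.32 and 0.69).

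**Figure D4:**
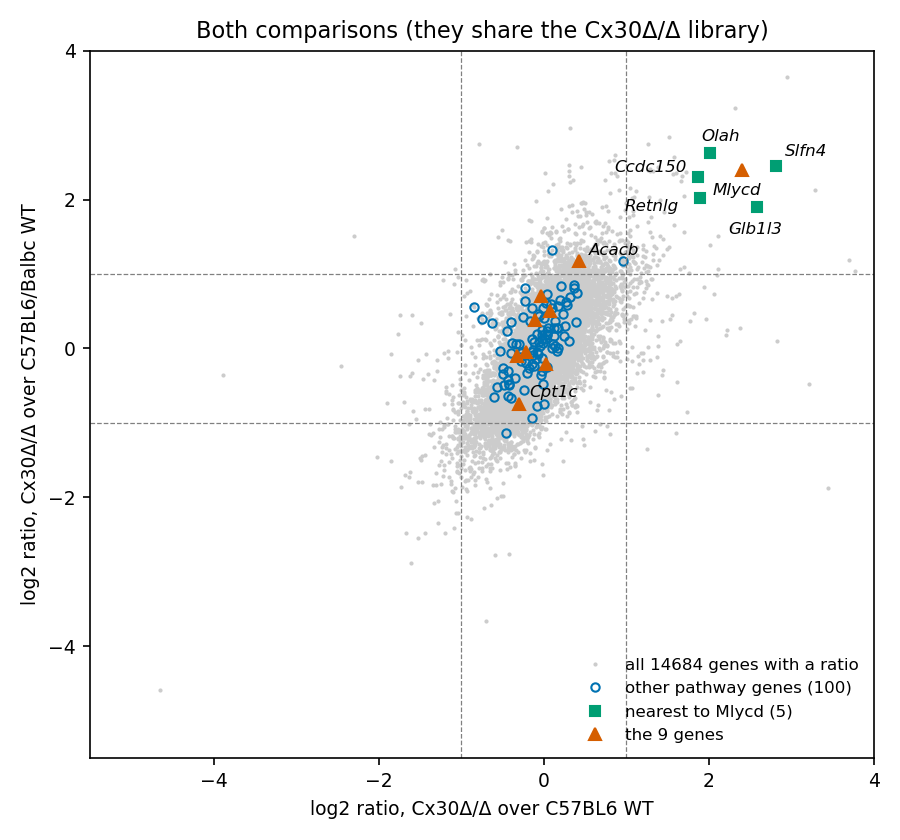
Log2 ratio of Cx30Δ/Δ over C57BL6 WT (horizontal) against that over C57BL6/Balbc WT (vertical) for 14678 of 14684 genes with a ratio in both (6 lie outside the axes), with dashed lines at 2-fold. Both axes hold the same Cx30Δ/Δ library; Mlycd is at 2.40 and 2.39, and the 100 other pathway genes lie inside the lines on at least 1 axis.

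Mlycd's neighbours on chromosome 8 did not share its ratio. Of 19 genes annotated within 500 kb, 16 had a row and 12 reached the count minimum. Among the 12, 0 were 2-fold higher or lower in both comparisons, near the shares over all genes (0.742% higher and 0.674% lower). The log2 ratios of the 12 ran from -0.30 to 0.18 against C57BL6 WT and from -0.49 to 0.60 against mixed WT. Hsbp1, at -50.4 kb from the start of Mlycd, read 1053.1, 806.9 and 1113.0 normalized counts (0.08 and 0.46). Osgin1, at 39.2 kb, read 117.0, 81.0 and 115.4 (-0.02 and 0.51), from a row annotated as a retained intron. Necab2, at 51.8 kb, read 661.0, 884.6 and 631.5 (-0.07 and -0.49).

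**Figure D5:**
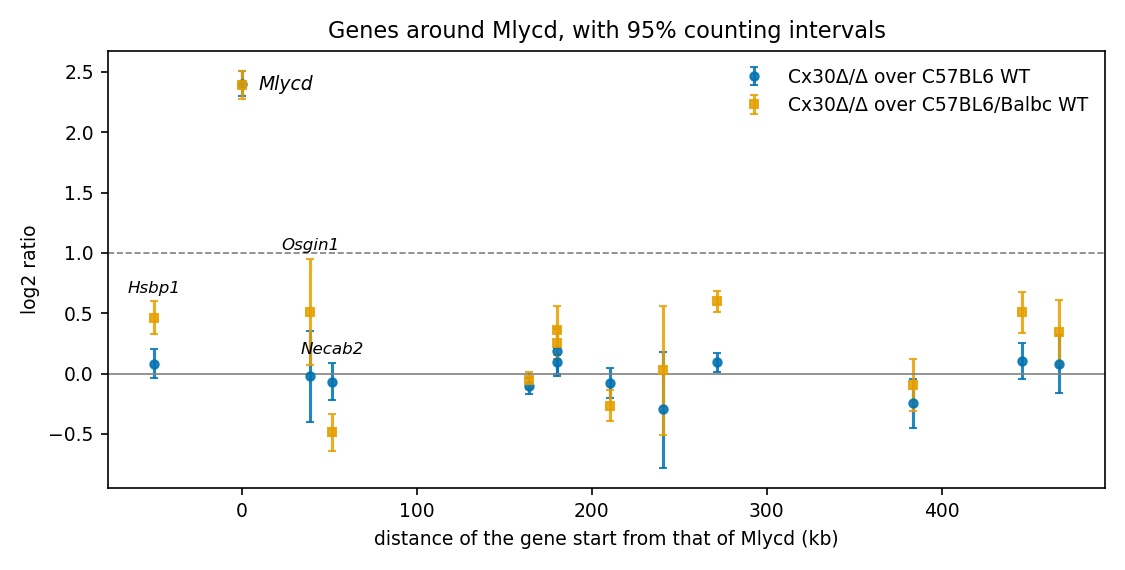
Log2 ratios of Cx30Δ/Δ over each WT library for Mlycd and the 12 genes within 500 kb of it that reached the count minimum, against distance from the start of Mlycd in kb. Mlycd is above 2 in both comparisons, and its neighbours lie between -0.49 and 0.60.

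The 5 genes nearest to Mlycd, by the distance between their pairs of log2 ratios, were Slfn4, Olah, Glb1l3, Ccdc150 and Retnlg. Slfn4 was the nearest, at a distance of 0.418 log2 units, and Retnlg the farthest of the 5, at 0.633. All had far fewer counts than Mlycd, from 8.7 to 82.1 normalized counts in C57BL6 WT. Slfn4, Olah, Glb1l3 and Retnlg reached the minimum of 50 normalized counts through the Cx30Δ/Δ library alone. Their high ratios were thus partly fixed by that minimum. Slfn4 read 20.1, 25.9 and 141.6 normalized counts. Olah, a thioesterase known to release medium chains from fatty acid synthase, read 14.8, 9.7 and 59.8. Its log2 ratios were 2.01 (1.21 to 2.88) and 2.62 (1.60 to 3.82). With 3 libraries this likeness rests on 2 ratios that share a library.

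Markers of blood cells were also higher in Cx30Δ/Δ. The 8 neutrophil markers summed to 554.5, 507.7 and 1564.1 normalized counts in C57BL6 WT, mixed WT and Cx30Δ/Δ, and 5 of the 6 that reached the minimum were 2-fold higher in both comparisons. Of its defining granule genes, Mpo read 20.1, 5.4 and 4.2 and Elane 4.4, 1.1 and 4.2. The 7 erythroid markers summed to 7732.2, 4359.4 and 18509.5, with 4 of the 5 that reached the minimum 2-fold higher in both. Over all genes, 109 of 14688 (0.742%) were at least 2-fold higher in both. A marker could reach the minimum through the Cx30Δ/Δ library alone, so these counts are descriptions. The 6 adipocyte markers summed to 103.9, 79.9 and 89.2, and those of striated muscle are given with Cpt1b. No marker in these 4 lists was at 0 in all libraries. The part of any of these cells in the level of Mlycd was not tested.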

How the data were processed

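RNA of isolated brain vessels was sequenced in 3 libraries (single-end reads of 50 bases, not strand-specific). Per the study's methods, reads of 11 bases or fewer or with a mean quality of 12 or lower were removed, and so were reads matching more than once. The submitters' processing notes name CASAVA 1.8.2, Bowtie and mm10. For each of 82813 transcripts the authors deposited the raw count of overlapping reads, that count divided by a library total, a fraction (24830975, 21170766 and 20654144 in the order C57BL6 WT, mixed WT and Cx30Δ/Δ), its length and its bases without a read. A read counts once in every transcript row it overlaps.

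Names and coordinates came from GENCODE M21 (GRCm38) by transcript identifier, for 69375 rows (83.8%). Positions in the files are on a build not settled here (1.57% of starts were the same in GENCODE M21) and were not used. Each gene took its row with the largest total count, divided by median-of-ratios size factors. Intervals are exact Clopper-Pearson 95% intervals of the 2 counts compared, and exact Poisson ones for levels (scipy 1.17.1); both cover counting error only. Calls needed 2-fold and, in 1 or both of the libraries compared, 50 normalized counts. Ratios had no pseudocount. The members and lists were chosen with earlier results of these data known, so no test was made. Named genes were the 9 members, in each list any gene past 2-fold in both comparisons and the highest and lowest with 1 sign in both, the 5 nearest to Mlycd, its neighbours, Gjb6 and leading markers. Sirt4, Pex5, Pdk4, Angptl4, Mpo, Elane, Actn2, Ttn and Ckm were added after their values were seen where that rule did not name them. So were Ppara, Ppard, Pparg, Rxra, Ppargc1a and Ppargc1b. Alternatives were TMM and upper-quartile scaling (edgeR 4.0.16, R 4.3.3), the deposited total, other rows, a pseudocount of 1, other minimums and a fold of 1.5. Counting and intervals were tested on simulated data.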

Additional observations from a re-analysis of the deposited data

How the results depend on the processing

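Of 165 alternative values of the 9 genes' log2 ratios, 162 moved by less than their counting interval and 3 by more. Mlycd stayed between 2.40 and 2.45 against C57BL6 WT, between 2.39 and 2.47 against mixed WT and between -0.06 and 0.03 between the WT libraries. With the total that the files divide by, Cpt1c read -0.66 against mixed WT and 0.36 between the WT libraries, and Fasn read -0.25 between the WT libraries. The sign of Acaca against mixed WT turned with the sum of all rows (0.11), and that of Fasn with the deposited total (0.03), both within intervals that include 0. Mlycd was the 1 member past 2-fold in both comparisons under all 8 alternatives. Of the pathway genes, members included, 1 passed (Mlycd), against 2 with no count minimum (Prkag3 added, lower, at 7.0, 9.7 and 2.1 normalized counts) and 3 with a fold of 1.5 (Acaa1b added, higher, and Elovl4, lower); the looser thresholds themselves let these in. No scaling moved the median of all genes by more than 0.08 on the log2 scale. The coding row of Mlycd was added as an alternative after seeing the data. No paired analysis was possible because each group is 1 library. For the same reason no library could be left out. Depth limits Acaca most, with 101 to 152 counts.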

Other observations

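Angptl4 and Pdk4, known as targets of PPAR, a family of fatty acid sensing transcription factors, differed by over 2-fold between the WT libraries, as did 508 of 14791 genes (3.43%). They were picked from the list of PPAR regulators and targets after their values were seen. Angptl4, an inhibitor of lipoprotein lipase, read 748.3 normalized counts in C57BL6 WT, 283.0 in mixed (C57BL6/Balbc) WT and 416.5 in Cx30Δ/Δ. Pdk4, the kinase that turns pyruvate dehydrogenase off, read 764.9, 345.6 and 453.2. For both, the Cx30Δ/Δ level lay between those of the WT libraries. Regulators on the same list went in both directions. Log2 ratios of mixed WT over C57BL6 WT were -0.24 for Ppard and -0.16 for Rxra. They were 0.46 for Ppargc1a and 0.75 for Ppargc1b. For Esrra (0.04, -0.07 to 0.14), Pparg (0.28, -0.03 to 0.60) and Ppara (0.17, -0.36 to 0.70) the interval includes 0.

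The 6 rows of Acaca did not move together. The 4 short rows, of 227 to 889 bases, had 3 to 20 counts in C57BL6 WT, 3 to 19 in mixed WT and 10 to 27 in Cx30Δ/Δ. All 4 were higher in Cx30Δ/Δ than in either WT library, with log2 ratios from 0.68 to 2.26 and from 0.46 to 1.69. The row used for the gene had ratios of -0.33 and -0.10. These rows share bases and counts are few, so they are not separate measurements. Reads covered 21.7%, 17.1% and 17.4% of the 9513 bases of the main row, against medians of 59.2%, 52.4% and 47.4% for genes of like length and count.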
